A study of Mus musculus with 9 samples.

Results

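Mature arms of the microRNA (miRNA) hairpins miR-150 and miR-342, which are known from lymphocytes, were followed in a mouse model of acetaminophen liver injury. The 4 arms, mmu-miR-150-5p, mmu-miR-150-3p, mmu-miR-342-3p and mmu-miR-342-5p (mmu- for mouse, left off from here on), were picked by name out of 946 mature miRNAs counted in liver. Of these 4, miR-150-5p and miR-342-3p passed the low-count filter, as did 360 of the 946 in all. The mice were wild-type C57 BL6, aged 8 weeks, with 3 liver libraries in each of 3 groups. dmPGE2+APAP mice received dmPGE2, a stable prostaglandin E2 analog, at 300 μg/kg and, 1 h later, acetaminophen (APAP) at 500 mg/kg, both into the peritoneum. APAP mice received 500 mg/kg acetaminophen without dmPGE2, and Control mice received saline. Livers of the APAP-treated groups were taken 6 h after acetaminophen, and the labels name the same time for Control. There was no group with dmPGE2 alone, so dmPGE2 could be judged only on top of acetaminophen. Nothing in the labels says that libraries of a group came from separate mice, so the p-values measure the spread between libraries, which may be technical.

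miRNAs are cut from a hairpin precursor that can release one mature RNA from each arm, named 5p and 3p, and the arm kept in the silencing complex is usually far more abundant. miR-150 rises as B, T and natural killer cells mature and restrains Myb, a transcription factor of lymphocyte progenitors. miR-342 lies in Evl, a gene for an actin regulator of the Ena/VASP family, and is found in white blood cells as well as in other tissues. A liver holds resident and blood-borne lymphocytes among a large majority of hepatocytes, and bulk counts cannot tell fewer cells of a type from less RNA per cell.

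RefSeq mature sequences were matched for 3 of the 4 arms and are shown because their seeds, bases 2 to 8 in capitals, set which messenger RNAs an arm can pair with.
miR-150-3p: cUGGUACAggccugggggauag
miR-342-3p: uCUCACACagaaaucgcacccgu
miR-342-5p: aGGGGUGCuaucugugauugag
The 3 seeds differed from each other, and each was held by 1 of the 1738 mature mouse miRNAs in the reference, so none of these arms had a seed partner there. The hairpin of miR-342 shows where its arms lie, in capitals, with 20 bases of loop between them.
Mir342 hairpin: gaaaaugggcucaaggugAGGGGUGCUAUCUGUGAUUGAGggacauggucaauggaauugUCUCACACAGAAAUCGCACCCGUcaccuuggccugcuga
It spans 99 bases at chr12:108658620-108658718 on the plus strand of GRCm38.p6, inside the span of Evl at chr12:108554681-108688516. The gene table gives no exons, so intron or exon was not resolved here. Mir150, at chr7:45121757-45121821, overlapped 0 other genes of the table. No other row of the table held counts matching those of either abundant arm within 5% or 2 reads in every library.

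Library totals ran from 1038799 to 6994952 reads in dmPGE2+APAP, 3523998 to 7563788 in APAP and 7590735 to 10483460 in Control, so depth and treatment were not balanced. The liver label matched the miRNAs, since 6 hepatocyte miRNAs, miR-122-5p and miR-148a-3p foremost, summed to between 328761 and 525127 CPM in every library. Levels are given as CPM, read counts scaled to one common library total with edgeR's TMM factors, and RPM is the same without those factors. The totals are sums over rows, and some rows hold nearly the same counts. In Control library 1, miR-122-5p stood at 179856 CPM and miR-122b-3p at 179825 CPM. Reads that such rows share enter a total more than once, so CPM, RPM and their intervals are shares of summed row counts. Levels of different miRNAs also carry differences in how well each RNA ligates to adapters. The Control columns carry a prefix found in no label and were assigned to Control as the one group left over. Their library numbers are the columns' own and do not tie a column to a labelled sample.

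miR-150-5p was the most abundant of the 4 arms and its level did not differ detectably between the groups, while 1 Control library fell far below all the others. It averaged 17.0 CPM over the 9 libraries, which ranked it 178th of 946, with 964 reads in total. In dmPGE2+APAP it stood at 17.0, 17.9 and 24.7 CPM, in APAP at 20.0, 14.0 and 13.9 CPM, and in Control at 1.91, 24.5 and 19.3 CPM. The group means were 19.9 ± 4.24 CPM in dmPGE2+APAP, 16.0 ± 3.52 in APAP and 15.2 ± 11.8 in Control (SD, n = 3 each). All 3 groups overlapped, and the order of their means lay within their spread.

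**Figure D1:**
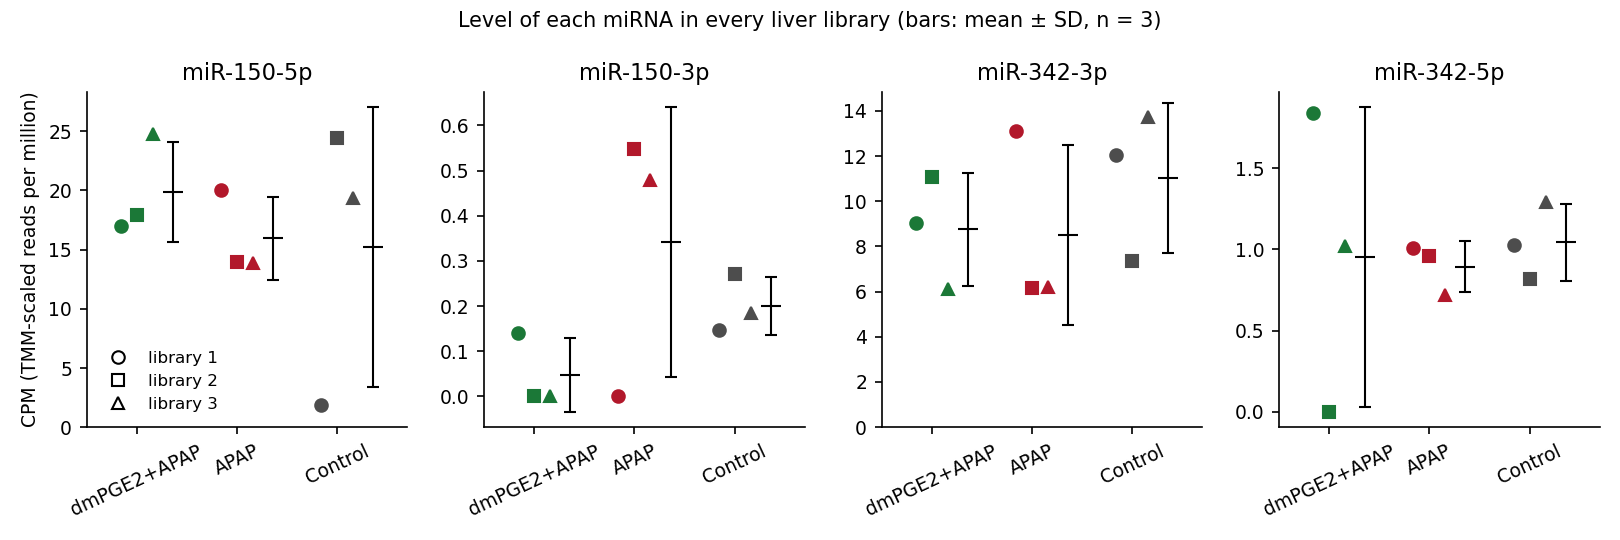
Level of miR-150-5p, miR-150-3p, miR-342-3p and miR-342-5p in CPM (TMM-scaled counts, linear axes that differ between panels) for every library of dmPGE2+APAP, APAP and Control. Symbols mark library numbers and bars the mean ± SD (n = 3). Control library 1 stands alone at 1.91 CPM of miR-150-5p, while no library stands apart in this way for miR-342-3p.

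Control library 1 held 13 reads of miR-150-5p among 7590735, or 1.71 RPM with an exact 95% binomial interval of 0.912 to 2.93. Control libraries 2 and 3 held 180 and 210 reads, or 18.5 (15.9 to 21.4) and 20.0 RPM (17.4 to 22.9). Such intervals cover only the counting error of reads taken as independent. PCR copies are not independent molecules, so the intervals may be too narrow. The lowest library outside Control had 13.5 RPM, with an interval of 11.0 to 16.4, so the gap of Control library 1 was wider than these intervals. Even the shallowest library, dmPGE2+APAP library 2, had more, with 21 of 1038799 reads and an interval of 12.5 to 30.9 RPM.

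Among 206 tested miRNAs averaging at least 10 CPM, miR-150-5p was the lowest in Control library 1 relative to the mean of the other Control libraries, at a log2 ratio of -3.22 with 0.5 CPM added to both. This look at library 1 was chosen after the values were seen and is a description. The next lowest, miR-19b-3p, stood at -1.36, and the median was -0.04. miR-342-3p was not low there, at 0.18 (12.0 CPM in library 1, against 7.34 and 13.7 CPM in libraries 2 and 3). Nor was the immune list described further on, whose 17 miRNAs summed to 1160 CPM in Control library 1, against 1116 and 1351 CPM in libraries 2 and 3. Of the list members averaging at least 10 CPM, miR-142a-3p, which marks blood-forming lineages widely, had the highest ratio. It stood at 25.8 CPM, against 14.0 and 8.75 CPM in libraries 2 and 3, and its reads are shared with the row miR-142b. Of the other such members, miR-142a-5p and miR-181d-5p lay above 0, at log2 ratios of 0.52 and 0.14. The rest of them lay below 0, from -0.49 (miR-31-5p) to -0.07 (miR-28a-5p). The muscle miRNA miR-499-5p, which is on none of the marker lists described further on, had the highest log2 ratio of the 206. It stood at 101 CPM, against a mean of 27.5 CPM in libraries 2 and 3. Of those lists, the red-cell, myeloid and hepatocyte sums of library 1 lay between those of libraries 2 and 3. The endothelial and mesenchymal sums were the highest of the 3 Control libraries. The part of these markers in the low miR-150-5p value was not tested.

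**Figure D2:**
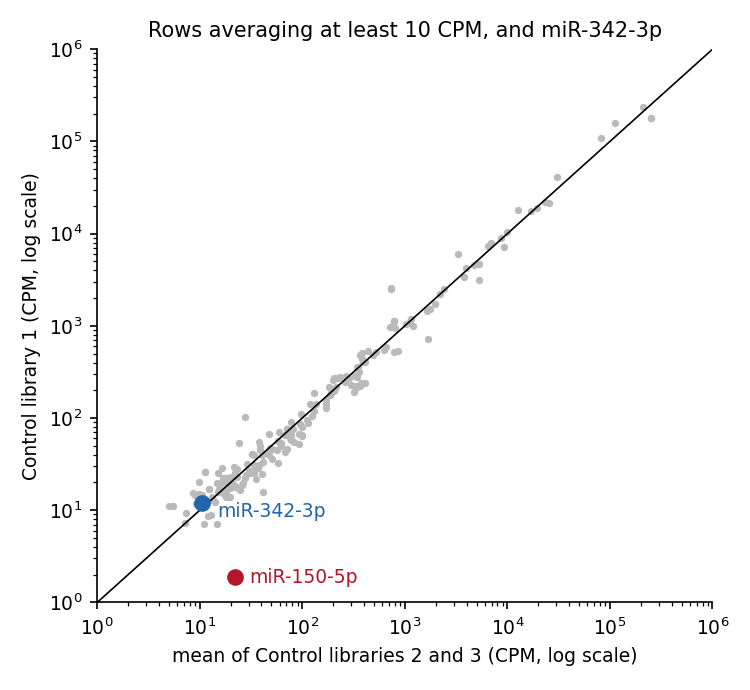
CPM in Control library 1 against the mean CPM of Control libraries 2 and 3, both on log scales, for the 206 miRNAs averaging at least 10 CPM (grey) and miR-342-3p. The line marks equal levels, and miR-150-5p lies far below it at a log2 ratio of -3.22, while miR-342-3p lies close to it.

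With edgeR's quasi-likelihood test over all 360 miRNAs, neither abundant arm was called in any comparison. APAP against Control asks what acetaminophen alone did. In it edgeR called 0.833% of the miRNAs, and miR-150-5p had a log2 change of 0.06 (SE 0.65, 95% interval -1.41 to 1.53, edgeR adjusted p 0.997). dmPGE2+APAP against APAP asks what the pretreatment added. There 0.278% were called, and the log2 change of miR-150-5p was 0.32 (SE 0.67, interval -1.19 to 1.83, edgeR adjusted p 0.938). dmPGE2+APAP against Control sets both drugs against neither, again with 0.278% called, and miR-150-5p stood at 0.39 (SE 0.66, interval -1.11 to 1.88, edgeR adjusted p 0.804). These intervals span changes of more than 2-fold in either direction, so the data do not show that the level stayed the same.

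The width came from Control library 1. Without it the log2 change of miR-150-5p was -0.41 (SE 0.29, interval -1.04 to 0.22, edgeR adjusted p 0.658) for APAP against Control. For dmPGE2+APAP against APAP it was 0.37 (SE 0.27, -0.22 to 0.96, edgeR adjusted p 0.868). For dmPGE2+APAP against Control it was -0.04 (SE 0.30, -0.68 to 0.60, edgeR adjusted p 0.963). Both comparisons with Control thus changed sign when this library was left out, and the 3 standard errors were 0.27 to 0.30, against 0.65 to 0.67 with it.

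**Figure D3:**
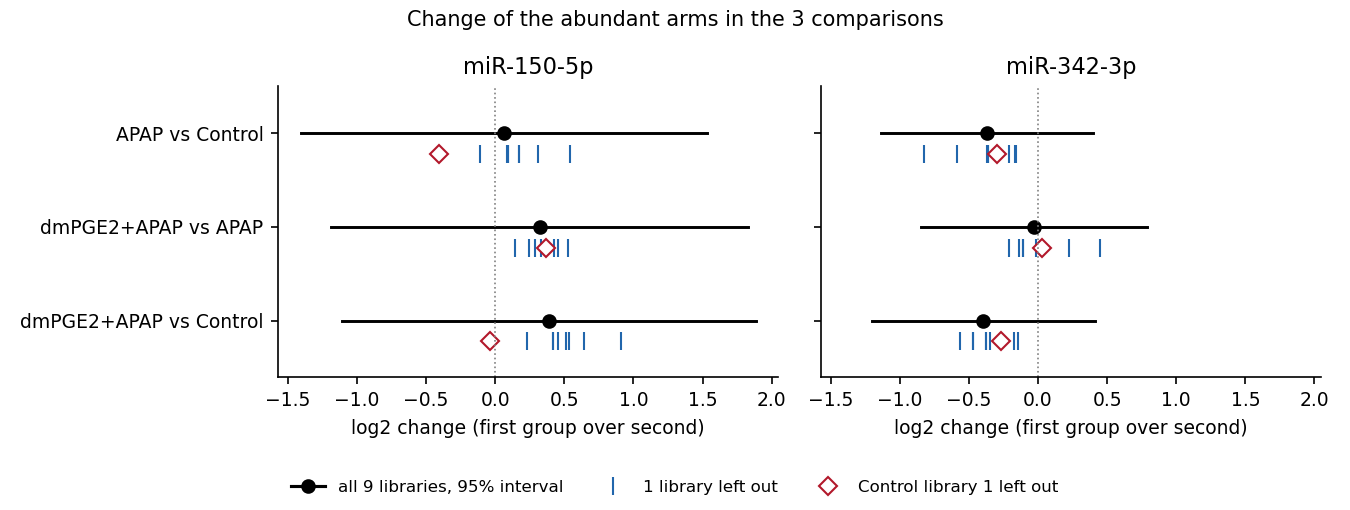
Log2 change of miR-150-5p and miR-342-3p in the 3 comparisons, first-named group over second. Black points and lines give edgeR's estimate and 95% interval from all 9 libraries, blue ticks the estimate with 1 library left out and red diamonds that without Control library 1. For miR-150-5p the diamonds of both comparisons with Control lie below 0, at -0.41 and -0.04, and every black interval crosses 0.

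miR-342-3p, the abundant arm of its hairpin, did not differ detectably between the groups either. It averaged 9.43 CPM over the 9 libraries (rank 215 of 946, 554 reads). Its levels were 9.05, 11.1 and 6.13 CPM in dmPGE2+APAP, 13.1, 6.16 and 6.22 CPM in APAP, and 12.0, 7.34 and 13.7 CPM in Control. The means were 8.75 ± 2.49 CPM in dmPGE2+APAP, 8.49 ± 3.99 in APAP and 11.0 ± 3.31 in Control (SD, n = 3 each), with overlap between all groups. APAP library 1 was high for its group, at a log2 ratio of 1.02 over the mean of the other APAP libraries, which was the highest of 207 miRNAs compared. That is a description of 1 library, and its miR-150-5p was less raised, at 0.51.

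The log2 change of miR-342-3p was -0.37 (SE 0.36, 95% interval -1.14 to 0.40) for APAP against Control, with edgeR's adjusted p at 0.747. For dmPGE2+APAP against APAP it was -0.03 (SE 0.38, -0.84 to 0.79), with edgeR's adjusted p at 0.993. For dmPGE2+APAP against Control it was -0.40 (SE 0.38, -1.20 to 0.41), with edgeR's adjusted p at 0.675. Without APAP library 1 the value for dmPGE2+APAP against APAP became 0.45 (edgeR adjusted p 0.993), and that for APAP against Control became -0.82 (95% interval -1.66 to 0.0080, edgeR adjusted p 0.817). Without Control library 3 the value for APAP against Control was -0.16, and with 1 library left out at a time that for dmPGE2+APAP against Control ran from -0.56 to -0.14. Over the 3 comparisons edgeR called 0 of the 2 abundant arms, with 0 at an unadjusted p under 0.05 and 0.313 as the lowest unadjusted p. DESeq2 and limma-voom also called 0, with 0 at an unadjusted p under 0.05.

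The minor arms were near the limit of detection and did not pass the filter. miR-342-5p had 62 reads in all, and its levels were 1.84, 0 and 1.02 CPM in dmPGE2+APAP, 1.01, 0.959 and 0.717 CPM in APAP, and 1.03, 0.815 and 1.29 CPM in Control. The 0 fell in the shallowest library, where 0 reads allow up to 2.89 RPM by a rule of 3 reads of the total. The exact 95% binomial interval there reaches 3.55 RPM, so the 0 does not mark a lower level. The group means of 0.953 ± 0.921 CPM in dmPGE2+APAP, 0.895 ± 0.155 in APAP and 1.04 ± 0.238 in Control differed by no more than their spread, with exact two-sided permutation p of 0.4 to 0.8 (n = 3 each).

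miR-150-3p had 12 reads in all, spread over 6 of the 9 libraries, with counts of 1, 0 and 0 in dmPGE2+APAP, 0, 4 and 2 in APAP, and 1, 2 and 2 in Control. In CPM the means were 0.0471 ± 0.0816 in dmPGE2+APAP, 0.342 ± 0.298 in APAP and 0.201 ± 0.0642 in Control (SD, n = 3 each). In dmPGE2+APAP against Control the groups did not overlap in CPM, and the exact permutation p was 0.1, the smallest that 3 against 3 libraries allow. Of the tested miRNAs, which leave out this arm, 14.7% did not overlap. The gap lay between 1 read in dmPGE2+APAP library 1 (0.141 CPM) and 1 read in Control library 1 (0.147 CPM). In RPM their order was reversed, at 0.143 and 0.132, so the groups overlapped. The gap in CPM thus rests on the TMM factors and on counts of 2 or fewer. By the rule of 3 reads, 0 reads allow up to 2.89 and 0.634 RPM in the dmPGE2+APAP libraries without a read. Differences of miR-150-3p were therefore not detectable at this depth. In a fit with no low-count filter, edgeR's adjusted p for the minor arms lay between 0.755 and 0.985.

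The share of reads from the minor arm is given for each hairpin. Over all libraries miR-342-5p made up 10.1% of miR-342 reads (62 of 616, exact 95% binomial interval 7.80 to 12.7), and miR-150-3p made up 1.23% of miR-150 reads (12 of 976, 0.637 to 2.14). The intervals are pooled over libraries and cover only the counting error of reads taken as independent. The difference between the hairpins was not tested over libraries. In 8 of the 9 libraries the miR-342-5p share was the higher, and both were 0% in dmPGE2+APAP library 2. Per library the miR-342-5p share was 16.9%, 0% and 14.3% in dmPGE2+APAP, 7.14%, 13.5% and 10.3% in APAP, and 7.87%, 10% and 8.59% in Control. Group means of 10.4% ± 9.09 in dmPGE2+APAP, 10.3% ± 3.16 in APAP and 8.82% ± 1.09 in Control (SD, n = 3 each) gave exact permutation p of 0.6 to 1. The miR-150-3p share averaged 0.275% ± 0.477 in dmPGE2+APAP, 2.37% ± 2.06 in APAP and 3.06% ± 3.54 in Control. Its dmPGE2+APAP libraries, at 0.826%, 0% and 0%, did not overlap those of Control, at 7.14%, 1.10% and 0.943% (exact permutation p 0.1, the smallest possible). That gap rested on 1 read of miR-150-3p in dmPGE2+APAP and 5 in Control. The 7.14% of Control library 1 stood on 1 read against 13 of miR-150-5p. How often the shares of other hairpins did not overlap was not computed, so this gap has no background beside it.

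The levels of the abundant arms were not detectably correlated across libraries. Pearson's r between log2 CPM of miR-150-5p and miR-342-3p was -0.27 over 9 libraries (exact permutation p 0.651), and Spearman's rho was -0.08 (exact permutation p 0.843; adjusted over the 2 coefficients, both 0.843). Without Control library 1 the r was 0.16, and without the 2 libraries farthest from the median of miR-150-5p, Control 1 and dmPGE2+APAP 3, it was 0.48. Within a group there are too few libraries for a correlation. The log2 ratio of miR-150-5p to miR-342-3p reads was 0.91, 0.69 and 2.01 in dmPGE2+APAP, 0.61, 1.18 and 1.16 in APAP, and -2.66, 1.74 and 0.50 in Control. Only in Control library 1 did miR-342-3p outnumber miR-150-5p.

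The rows most like miR-150-5p over the 9 libraries were miR-125b-5p (Pearson's r 0.93), miR-100-5p (0.91), miR-125a-5p (0.75), miR-1839-5p (0.74) and miR-191-5p (0.69), out of 205 candidates at 10 CPM or more. The likeness was lower without Control library 1, where r was 0.61, 0.21, 0.24, 0.30 and 0.38 in the same order, and miR-100-5p dropped to rank 63. For miR-342-3p the nearest of 206 candidates were miR-145a-5p (0.82), miR-320-3p (0.75), let-7b-5p (0.71), miR-199a-5p (0.65) and miR-192-3p (0.65). Without Control library 1 their r was 0.80, 0.87, 0.82, 0.61 and 0.65. Without the 2 libraries farthest from the median of miR-342-3p, Control 3 and dmPGE2+APAP 3, it was 0.71, 0.58, 0.62, 0.44 and 0.63. No immune-list miRNA was among these 5 rows of either arm over the 9 libraries, but without Control library 1 the list member miR-31-5p ranked 3rd for miR-342-3p (r 0.81). Of the rows near miR-342-3p, miR-145a-5p and miR-199a-5p are on the mesenchymal marker list described further on. The other members of that list, miR-143-3p, miR-199a-3p and miR-214-3p, were not among the 5 nearest. Points of a correlation share library depth and scaling, so these values are descriptions.

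Ratios within a library need no scaling between libraries, so both abundant arms were set against markers of other cells. These were miR-223-3p of neutrophils and macrophages, miR-451a of red cells and miR-122-5p of hepatocytes, chosen with earlier results of these data known. Over the 27 tests of ratios and arm shares the lowest exact permutation p was 0.1 (n = 3 each), the smallest possible, and 0.338 after Benjamini-Hochberg adjustment, so none passed.

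The log2 ratio of miR-342-3p to miR-223-3p averaged -1.76 ± 0.42 in APAP and -0.32 ± 0.20 in Control, and each APAP library lay below each Control library. The ratio of miR-342-3p to miR-451a averaged -6.58 ± 0.11 in APAP and -5.26 ± 0.59 in Control, again without overlap. Ratios to these markers moved for much of the table, since 57.9% of all tested miRNAs had no overlap in their ratio to miR-223-3p in this comparison, and 56.0% in their ratio to miR-451a. For miR-150-5p the APAP and Control ratios overlapped because of Control library 1. Without it, the difference was -1.52 against miR-223-3p and -1.36 against miR-451a (exact permutation p 0.2 each, the smallest that 3 against 2 allow).

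In dmPGE2+APAP the same ratios lay above those in APAP, without passing the test. The log2 ratio of miR-150-5p to miR-223-3p averaged 0.61 ± 0.68 in dmPGE2+APAP and -0.77 ± 0.31 in APAP, and its ratio to miR-451a averaged -3.91 ± 0.22 in dmPGE2+APAP and -5.60 ± 0.24 in APAP. For miR-342-3p the ratio to miR-223-3p averaged -0.60 ± 0.99 in dmPGE2+APAP and -1.76 ± 0.42 in APAP, and that to miR-451a -5.11 ± 0.52 in dmPGE2+APAP and -6.58 ± 0.11 in APAP. None of these 4 pairs overlapped. The background was 40.4% of all tested miRNAs for miR-223-3p and 78.8% for miR-451a, so the lack of overlap was common across the table. Of the markers themselves, miR-451a fell in dmPGE2+APAP against APAP, at a log2 change of -1.44 (SE 0.25, edgeR adjusted p 0.00993). With dmPGE2+APAP library 2 or APAP library 1 left out, edgeR called 0 miRNAs in this comparison. miR-223-3p did not pass, at -0.93 (SE 0.32, edgeR adjusted p 0.326).

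Against miR-122-5p both arms overlapped in all 3 comparisons, where 9.19% of all tested miRNAs did not overlap for APAP against Control, 16.2% for dmPGE2+APAP against APAP and 8.91% for dmPGE2+APAP against Control. The log2 ratio of miR-150-5p to it averaged -13.25 ± 0.38 in dmPGE2+APAP, -13.47 ± 0.30 in APAP and -14.46 ± 1.81 in Control. That of miR-342-3p averaged -14.45 ± 0.45 in dmPGE2+APAP, -14.46 ± 0.61 in APAP and -14.32 ± 0.97 in Control (SD, n = 3 each). Between dmPGE2+APAP and Control the ratios to miR-223-3p overlapped for both arms, with 8.08% of all tested miRNAs not overlapping, and so did the ratio of miR-342-3p to miR-451a. The ratio of miR-150-5p to miR-451a averaged -3.91 ± 0.22 in dmPGE2+APAP and -5.40 ± 2.01 in Control without overlap, where 32.9% of all miRNAs did not overlap. That difference was 1.49, and without Control library 1 it was 0.33.

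**Figure D4:**
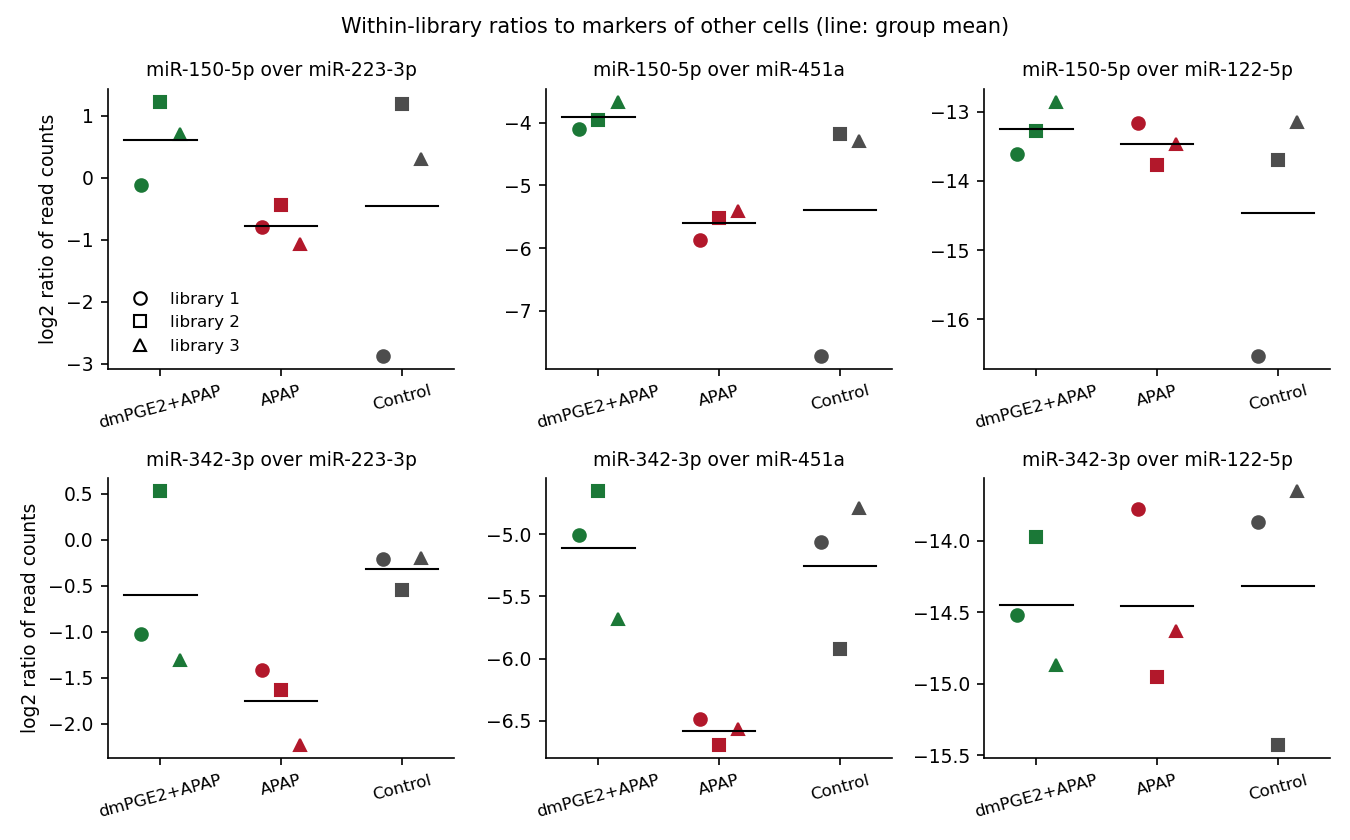
Log2 ratio of read counts of miR-150-5p (top) and miR-342-3p (bottom) to miR-223-3p, miR-451a and miR-122-5p in each library of dmPGE2+APAP, APAP and Control, with library symbols and a line at the group mean. Ratios to miR-223-3p and miR-451a lie higher in the 3 dmPGE2+APAP libraries than in the 3 APAP libraries, and those to miR-122-5p overlap. Of all tested miRNAs, 40.4% and 78.8% had no overlap, in either direction, in their ratios to miR-223-3p and miR-451a between these 2 groups.

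Other miRNAs of white blood cells did not pass the test either. The immune list held 17 miRNAs, such as miR-155 of activated lymphocytes, miR-146a of NF-kB feedback, miR-181 of thymocytes and miR-142a of blood-forming lineages. Of these, 14 were tested and edgeR called 0 in each comparison, with 0 at an unadjusted p under 0.05. limma-voom gave the same counts, and DESeq2 called 0, with 1 at an unadjusted p under 0.05 in dmPGE2+APAP against APAP. Median log2 changes were 0.07 for APAP against Control, 0.03 for dmPGE2+APAP against APAP and -0.06 for dmPGE2+APAP against Control, beside -0.05, 0.00 and -0.03 over all tested miRNAs. Values lay above 0 for 8, 10 and 5 of the 14 in this order, beside 44.7%, 50.0% and 46.1% of all tested miRNAs. Over all 360, edgeR's unadjusted p was under 0.05 for 23 higher and 12 lower miRNAs in APAP against Control. The counts were 9 higher and 14 lower in dmPGE2+APAP against APAP, and 20 higher and 18 lower in dmPGE2+APAP against Control. The list members miR-155-3p and miR-146a-3p had no read in some libraries.

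The 2 most abundant members were miR-181a-5p and miR-146a-5p. miR-181a-5p stood at 333, 308 and 321 CPM in dmPGE2+APAP, 310, 317 and 305 CPM in APAP, and 320, 342 and 375 CPM in Control. miR-146a-5p stood at 405, 216 and 257 CPM in dmPGE2+APAP, 399, 208 and 261 CPM in APAP, and 289, 225 and 433 CPM in Control. The groups overlapped widely for miR-146a-5p. For miR-181a-5p each APAP library lay below each Control library, as held without overlap for 16.7% of all tested miRNAs, with a log2 change of -0.15 (SE 0.18, edgeR adjusted p 0.791). Its dmPGE2+APAP libraries overlapped both groups, where 13.9% of all tested miRNAs did not overlap against APAP and 14.7% against Control.

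Marker lists of other cells gave the setting of these values. Red-cell miRNAs, 4 of 4 tested, summed to 352 to 379 CPM in dmPGE2+APAP, 731 to 1398 CPM in APAP and 431 to 543 CPM in Control. Myeloid miRNAs, 2 of 2 tested, summed to 11.9 to 24.0 CPM in dmPGE2+APAP, 27.1 to 41.2 CPM in APAP and 14.0 to 21.6 CPM in Control. Both sums lay higher in every APAP library than in any library of the other groups, whereas miR-150-5p and miR-342-3p overlapped. Of single tested miRNAs, 16.7% did not overlap for APAP against Control and 13.9% for dmPGE2+APAP against APAP. No such share was computed for sums of lists. Not every red-cell member stood apart. miR-144-5p overlapped between APAP (lowest 21.8 CPM) and Control (highest 27.0 CPM). miR-144-3p overlapped between APAP (lowest 12.1 CPM) and dmPGE2+APAP (highest 13.6 CPM). The 2 most abundant red-cell miRNAs averaged 295 ± 18.0 CPM (miR-451a) and 48.1 ± 7.78 CPM (miR-486a-5p) in dmPGE2+APAP, 800 ± 323 and 108 ± 44.8 CPM in APAP, and 409 ± 34.0 and 47.9 ± 11.9 CPM in Control (SD, n = 3 each). The myeloid pair averaged 13.7 ± 5.49 CPM (miR-223-3p) and 4.87 ± 0.713 CPM (miR-223-5p) in dmPGE2+APAP, 27.7 ± 8.01 and 7.91 ± 1.50 CPM in APAP, and 13.5 ± 2.54 and 4.68 ± 1.30 CPM in Control (SD, n = 3 each). Hepatocyte, endothelial and mesenchymal sums overlapped between all groups. The part of these cells in the ratios was not tested. No marker of these lists was at 0 in any library, and edgeR called 1 of them, miR-451a, in dmPGE2+APAP against APAP.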

How the data were processed

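Small RNA of 9 liver libraries was counted by the authors. Per the file headers, the authors deposited a raw read count for each mature miRNA and a TPM column, whose values are the count over the library total with no length term. The submitters' processing notes name Bowtie and mm10. Which counter, annotation and strand setting were used is not given in the sources used here. APAP and dmPGE2+APAP columns match their labels, and the columns with another prefix were taken as Control, the group that remained. The 3 TPM columns with that prefix were not used.

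Counts were fitted in R 4.3.3 with edgeR 4.0.16 (TMM scaling, filterByExpr with minimum count 10 and minimum total 15, robust quasi-likelihood test, 3 group means in 1 fit). The threshold was a Benjamini-Hochberg adjusted p of 0.05 over 360 miRNAs. SEs derive from the F statistic. Low rows and ratios were tested by exact two-sided permutation in scipy 1.17.1. The scripts were tested on simulated counts. Alternatives used library totals, DESeq2 1.42.0, limma-voom (limma 3.58.1), other filters, 2-group fits, thinned counts, log2(TPM + 1) for dmPGE2+APAP against APAP, a replicate block and each library left out. Likeness is Pearson's r of log2 CPM (prior count 2).

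The 4 members, the lists and the markers were chosen with earlier results of these data known. Named miRNAs are the members, their 5 most similar rows, the 2 most abundant members of each list and called list members. Names beyond these were chosen after their values were seen. Sequences and coordinates are RefSeq's on GRCm38.p6.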

Additional observations from a re-analysis of the deposited data

How the results depend on the processing

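Neither abundant arm was called under any of up to 19 alternatives per comparison, 103 values in all, with a lowest adjusted p of 0.582. The sign was less firm in some comparisons and reversed in 10 of the 103 values. It held in all 19 alternatives for miR-150-5p in dmPGE2+APAP against APAP (above 0). For miR-342-3p it held in all 16 alternatives of each comparison with Control (below 0). miR-150-5p in APAP against Control became -0.017 with no low-count filter and ran from -0.41 to 0.54 with 1 library left out, and in dmPGE2+APAP against Control it ran from -0.040 to 0.91. limma-voom gave 0.62 and 0.94 for these comparisons. miR-342-3p in dmPGE2+APAP against APAP became 0.075 on log2(TPM + 1), 0.018 with the replicate number as a block, and -0.21 to 0.45 with 1 library left out. The block applied to dmPGE2+APAP and APAP only, whose columns carry the labels' numbers. Same-numbered libraries there had correlations of 0.17, -0.10 and 0.12 between their deviations, so the numbers were not taken as pairs. Differences of miR-342-5p ran from -0.38 to 0.54 CPM (dmPGE2+APAP against APAP) and -0.53 to 0.39 CPM (dmPGE2+APAP against Control, 0.014 with library totals). Differences in minor-arm share ran from -1.75 to 1.35 percentage points for miR-150-3p in APAP against Control. For miR-342-5p they ran from -0.074 to 3.09 in APAP against Control, -3.17 to 5.27 in dmPGE2+APAP against APAP and -1.68 to 6.77 in dmPGE2+APAP against Control. Thinning to 1038799 reads left 0 to 2 reads of each minor arm per library, too few for a direction.

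Counts over all miRNAs moved more. APAP against Control had 3 calls, against 8 with library totals, 12 with DESeq2, 9 with no filter, 0 when 10 CPM on average was required and 7 with only these groups, and 0 to 9 with 1 library left out (0 without APAP 1, APAP 3 or Control 2). dmPGE2+APAP against APAP had 1, against 8 with DESeq2, 9 with no filter and 0 with only these groups, the block or log2(TPM + 1), and 0 to 5 with 1 library left out (0 without dmPGE2+APAP 2 or APAP 1). dmPGE2+APAP against Control had 1, against 2 with library totals, DESeq2 or no filter, 0 with limma-voom or at 10 CPM, and 1 to 2 with 1 library left out. In that comparison the call of the main fit was higher in dmPGE2+APAP, whereas the 1 call with thinned counts was lower. The cause of these shifts was not tested. Without robust weighting, an alternative chosen after seeing the data, the counts were 2, 1 and 1 in the same order. Depth limits the minor arms, since a count of 0 in the shallowest library allows up to 2.89 RPM by the rule of 3 reads. The log2(TPM + 1) alternative was not run against Control, whose TPM columns were not used, and miR-342-3p fell under the filter at a mean of 10 CPM.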

Other observations

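In Control library 1, 4 of 206 miRNAs averaging at least 10 CPM had a log2 ratio under -1 to the mean of Control libraries 2 and 3, and 8 had one above 1. The low ones were miR-150-5p (1.91 CPM in library 1, against 21.9 CPM), miR-19b-3p (15.8 against 41.5 CPM), miR-100-5p (723 against 1685 CPM) and miR-193a-5p (7.04 against 14.6 CPM). High ones included the muscle miRNAs miR-499-5p (log2 ratio 1.86), miR-1a-3p (1.80) and miR-133a-3p (1.16). They were picked out once their values were known.

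miR-150-5p had the widest spread of 207 miRNAs within Control, with a log2 ratio of highest to lowest library of 3.68, beside a median of 0.59. Within dmPGE2+APAP its spread of 0.54 ranked 88th (median 0.47) and within APAP its spread of 0.53 ranked 79th (median 0.43).

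Without Control library 1, the rows most like miR-150-5p over the remaining 8 libraries were miR-99a-5p (Pearson's r 0.80), miR-30b-3p (0.71) and miR-340-3p (0.69), none of them among the 5 nearest over all 9.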
